A study of Mus musculus with 12 samples.

Results

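The interleukin 1 (IL-1) family genes were followed in mouse brain after ischemic stroke. The 9 genes were chosen by name, as the cytokines Il1a, Il1b, Il18 and Il33, the receptor antagonist Il1rn, the receptor chains Il1r1 and Il1rap, the decoy receptor Il1r2 and the IL-18 binding protein Il18bp, and all 9 were found among the 31208 genes of the count table. Brain RNA came from 12 C57BL/6 mice of 8 weeks, 4 in each of 3 groups. Sham mice were compared with mice after middle cerebral artery occlusion (MCAO), which had been given either vehicle (sterile saline) or lactate by intracerebroventricular injection on the day before surgery, with brains taken 6 h after ischemia. The study's methods name D-lactate and male mice, whereas the labels say lactate without its form and give no injection for the sham mice. Whether sham mice were injected is therefore not known. Any contrast with sham may hold ischemia and injection together, and these cannot be told apart. Full-length cDNA was sequenced as long nanopore reads, and levels are given in CPM (a count relative to all counts of its mouse).

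IL-1 alpha and IL-1 beta signal through the IL-1 receptor chain IL1R1, which needs the accessory chain IL1RAP to recruit MYD88 and activate NF-kappa B. The pathway is held back by the antagonist IL1RN, which occupies IL1R1 without signalling, and by the decoy IL1R2, which binds IL-1 but lacks the intracellular signalling part. IL-18 and IL-33 are related cytokines with receptors of their own, and IL-1 beta is known as an early mediator of inflammation in the ischemic brain.

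Libraries held 6815920 to 10677224 counts each. A level of 3 counts, taken as the smallest that can be told from 0, was 0.281 to 0.44 CPM per library, and such limits cover counting error only. The library of vehicle mouse 1 stood apart, with a value of 66.8 on the second principal component (12.2% of variance over 18134 genes), against -21.7 to -7.76 in the other vehicle mice, so the fold changes of the genes tested among the 9, and other calls that change, are also given without it. Neuron markers summed to 3290 to 5151 CPM and oligodendrocyte markers to 5609 to 11378 CPM over the 12 mice, so the tissue label was met.

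Il1r1 and Il1r2 rose in the ischemic brain with either injection, while the transcripts of IL-1 itself stayed at a few counts per mouse. Il1r1 was 2.54-fold higher than sham with vehicle and 2.93-fold higher with lactate. Il1r2 was nearly absent from sham brains, with 2 counts over 4 mice, and reached 74 counts with vehicle and 82 with lactate. The other 4 genes tested, Il18, Il33, Il1rap and Il18bp, did not pass the test against sham. Between lactate and vehicle, Il33 had the largest fitted difference of the 6 genes tested, with no overlap between the groups, but not past the adjusted threshold.

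**Figure D1:**
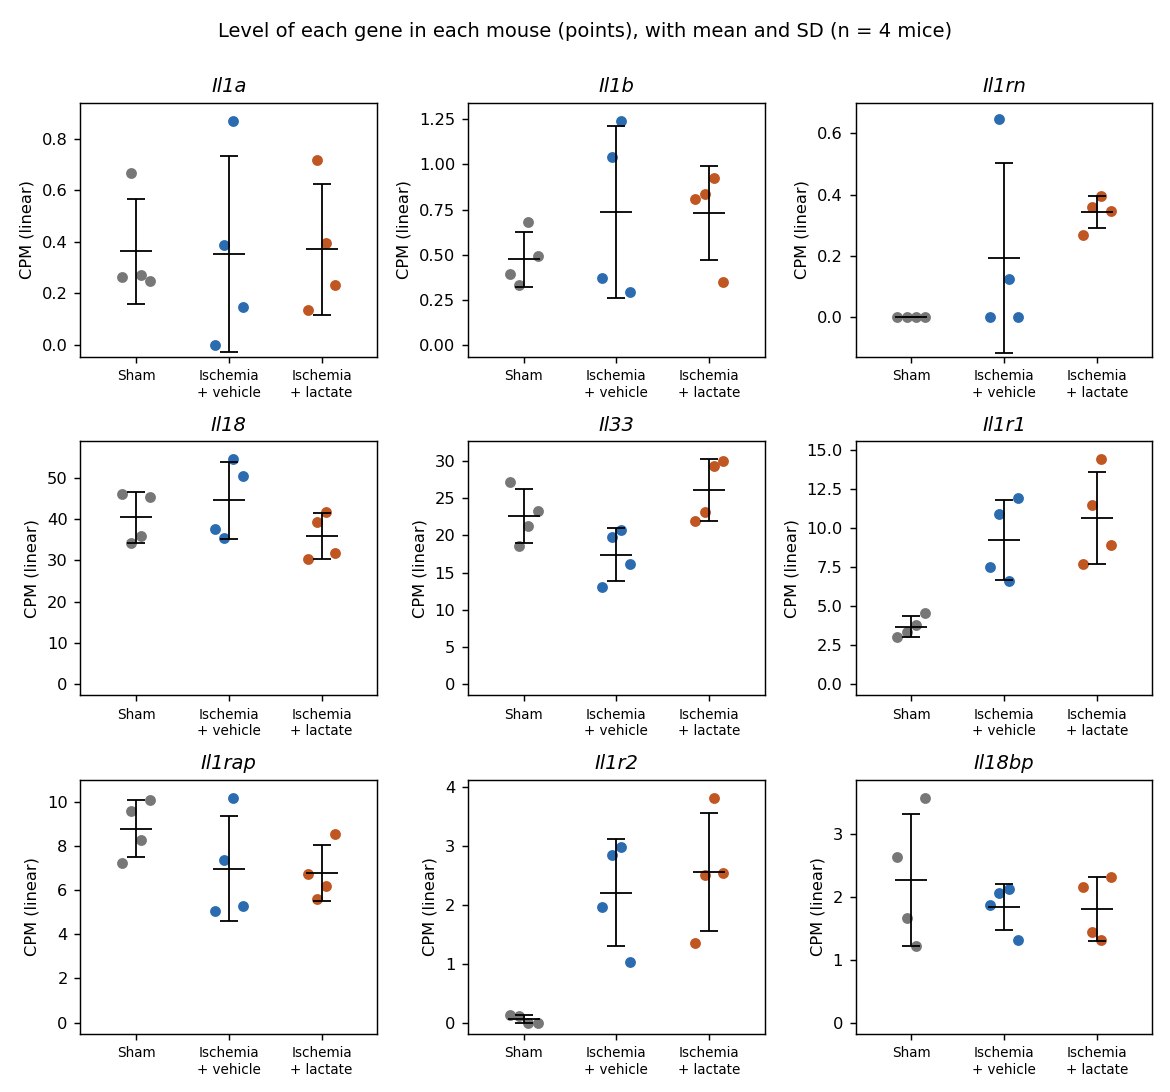
Level of each gene in CPM (linear axes) in each mouse of the 3 groups. Points are mice, horizontal bars are means and whiskers are SD (n = 4 mice). Every ischemic mouse lies above every sham mouse for Il1r1 and Il1r2, the lactate mice lie above the vehicle mice for Il33, and Il1a, Il1b and Il1rn are at most 1.24 CPM throughout.

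The calls were made with the quasi-likelihood test of edgeR where the unadjusted p was under 0.05 and the change at least 1.5-fold, and the Benjamini-Hochberg adjusted p over all genes tested is given beside it. Calls after adjustment are those with an adjusted p under 0.05 at any fold change. Of the 9 genes, 6 had enough counts to be tested, and 3 (Il1a, Il1b and Il1rn) did not. Against sham, 2 of the 9 were called with vehicle and 2 with lactate, both before and after adjustment, and all calls were upward. Over the whole table, 9.52% of 17019 genes were called with vehicle (6.5% upward) and 17.5% of 17262 genes with lactate (11.9% upward). After adjustment these shares were 1.47% (1.29% upward) and 12.3% (8.76% upward). Since Il1r2 passed the filter on low counts only through the ischemic mice, the number of calls among the genes tested is a description. Both contrasts use the same 4 sham mice and are not independent of each other.

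Il1a (chr2:129299610-129309972, minus strand, GENCODE M21 on GRCm38, as for the genes that follow) encodes IL-1 alpha, an alarm cytokine released by injured cells. Its counts were 2, 6, 2 and 2 in sham mice 1 to 4, then 0, 3, 7 and 1 with vehicle and 1, 6, 3 and 2 with lactate. The groups overlapped, and 3 of 4 mice in each group were at or under 3 counts. The mean was 0.363 ± 0.204 CPM in sham, 0.352 ± 0.382 CPM with vehicle and 0.37 ± 0.256 CPM with lactate (SD, n = 4). Exact two-sided permutation tests on log2(CPM + 1) gave p = 0.886 for vehicle and p = 1 for lactate against sham. When vehicle mouse 1 was left out, the difference of vehicle from sham in mean log2(CPM + 1) was 0.09 for Il1a in place of -0.04, 0.30 for Il1b in place of 0.20 and 0.30 for Il1rn in place of 0.22, with exact permutation p from 0.286 to 0.571.

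Il1b (chr2:129364570-129371139, minus strand) encodes IL-1 beta, the secreted cytokine that is cut from its precursor by caspase-1. Counts were 3, 3, 5 and 4 in sham mice 1 to 4, 4, 8, 10 and 2 with vehicle, and 6, 7, 7 and 3 with lactate. Vehicle mice 2 and 3 and lactate mice 1 to 3 were above every sham mouse, but the groups overlapped. Mean levels were 0.476 ± 0.151 CPM in sham, 0.737 ± 0.474 CPM with vehicle and 0.73 ± 0.259 CPM with lactate (SD, n = 4). The ratio of the summed counts to sham was 1.54 with vehicle (95% interval 0.776 to 3.16) and 1.54 with lactate (0.768 to 3.17), where the exact Clopper-Pearson intervals cover counting error only. Exact permutation tests gave p = 0.4 and p = 0.171, with 0.0286 the smallest p that 4 against 4 mice allow. A difference of Il1b at 6 h was not detected, and the counting intervals reach a 3.16-fold rise with vehicle and a 3.17-fold rise with lactate. The 250 bases before the RefSeq start of Il1b (GRCm38.p6, chr2:129371140-129371389, minus strand) are shown because IL-1 beta is known as an early mediator of inflammation in the ischemic brain. Capitals mark matches on either strand to any of 5 motifs searched, here a TATA box (TATAAA) 31 bases before the start.

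Il1b: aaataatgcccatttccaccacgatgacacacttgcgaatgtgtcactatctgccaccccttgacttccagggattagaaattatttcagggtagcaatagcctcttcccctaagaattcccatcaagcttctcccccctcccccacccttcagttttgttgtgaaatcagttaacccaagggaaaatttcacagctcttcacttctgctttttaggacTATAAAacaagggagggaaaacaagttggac

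Il1rn (chr2:24336853-24351494, plus strand) encodes the receptor antagonist, and its transcript was at 0 in all 4 sham mice. Counts were 0, 5, 1 and 0 with vehicle and 2, 3, 3 and 3 with lactate. All 4 lactate mice thus held reads, against 2 of 4 vehicle mice, but each lactate mouse was at or under the limit of 3 counts. For this reason no fold change is given. Lactate and sham did not overlap (exact permutation p = 0.0286, the smallest possible), and over all genes with a count in this pair of groups, 9.61% were higher with lactate without overlap. Vehicle against sham gave p = 0.429 and lactate against vehicle p = 0.257 by the same exact test. With no filter on low counts, edgeR gave Il1rn an adjusted p of 0.0311 for lactate and 0.381 for vehicle.

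Il18 (chr9:50554827-50581840, plus strand) encodes IL-18, which like IL-1 beta is cut by caspase-1 and which induces interferon gamma in lymphocytes. Its level in mice 1 to 4 was 46.2, 34.3, 35.9 and 45.4 CPM in sham, 37.7, 35.4, 54.5 and 50.5 CPM with vehicle, and 30.4, 39.3, 41.8 and 31.9 CPM with lactate. All 3 groups overlapped. By edgeR, the log2 fold change to sham was 0.17 with vehicle (SE 0.18, adjusted p = 0.731) and -0.14 with lactate (SE 0.15, adjusted p = 0.582). The 95% intervals, -0.21 to 0.56 and -0.46 to 0.17, both lie below a log2 fold change of 1. In the annotation, the first 355 bases of Il18 overlap Bco2 on the opposite strand, and Tex12 lies inside it. The summed counts of Bco2 were 43, 50 and 39 in sham, vehicle and lactate and those of Tex12 were 5, 1 and 0, against 1145 to 1457 for Il18.

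Il33 (chr19:29925114-29960718, plus strand) encodes IL-33, a nuclear alarm cytokine that in brain is known from oligodendrocytes and astrocytes and is released when cells are damaged. Its level in mice 1 to 4 was 27.2, 18.6, 21.3 and 23.3 CPM in sham, 13, 19.8, 20.7 and 16.1 CPM with vehicle, and 22, 23.1, 29.3 and 30 CPM with lactate. Vehicle mice tended to the low end of the sham range and lactate mice to its high end, and each ischemic group overlapped sham. The log2 fold change to sham was -0.34 with vehicle (SE 0.19, adjusted p = 0.464 by edgeR) and 0.24 with lactate (SE 0.15, adjusted p = 0.338). Neither difference passed the test.

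Lactate and vehicle were compared directly to ask what lactate changed in ischemic mice that had all been injected, and here Il33 did not overlap between groups. The mean was 26.1 ± 4.12 CPM with lactate and 17.4 ± 3.53 CPM with vehicle (SD, n = 4), with the lowest lactate mouse at 22 CPM and the highest vehicle mouse at 20.7 CPM. By edgeR the log2 fold change was 0.57 (SE 0.19, 95% interval 0.15 to 0.98, unadjusted p = 0.0116, adjusted p = 0.496), a 1.48-fold difference that lies just under the limit of 1.5. The exact permutation p was 0.0286. Over the whole table, 2.99% of 17419 genes were higher with lactate without overlap. Without vehicle mouse 1, which held the lowest level, the log2 fold change was 0.46 (unadjusted p = 0.0229, adjusted p = 0.428). Oligodendrocyte markers summed to 5609 to 10556 CPM with vehicle and 8904 to 9946 CPM with lactate, and astrocyte markers to 834 to 886 and 793 to 963 CPM. Mbp (mean 6890 and 7401 CPM) and Slc1a2 (524 and 545 CPM) made up most of these sums, which do not stand for all the markers. Among these markers, Mog and Opalin were called lower with lactate than with vehicle before adjustment (log2 fold changes of -0.66 and -0.77, adjusted p of 0.496 and 0.497 by edgeR), and without vehicle mouse 1 Opalin alone was (-0.88, with -0.49 for Mog). The part of cell content in the level of Il33 was not tested.

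Il1r1 (chr1:40225080-40317257, plus strand) encodes the receptor chain through which IL-1 signals, known in brain from endothelial cells and some neurons. Its level was 3.03, 3.34, 3.8 and 4.56 CPM in sham mice 1 to 4, 7.49, 10.9, 6.6 and 11.9 CPM with vehicle, and 7.71, 11.5, 14.4 and 8.93 CPM with lactate. Every ischemic mouse was above every sham mouse, and the vehicle and lactate mice overlapped. With vehicle the log2 fold change to sham was 1.35 (SE 0.26, 95% interval 0.78 to 1.91, adjusted p = 0.0222 by edgeR), and with lactate it was 1.55 (SE 0.24, 1.03 to 2.07, adjusted p = 0.00149). A gene higher than sham without overlap was found in 4.14% of genes tested with vehicle and 10.4% with lactate. In bulk tissue, more cells of a type and more RNA per cell cannot be told apart, which holds for every gene here.

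The rise of Il1r1 kept its direction and an unadjusted p of at most 0.00101 when any 1 mouse was left out. Without vehicle mouse 1 the log2 fold change was 1.44 (adjusted p = 0.0165, edgeR). The adjusted call for vehicle against sham was nevertheless close to the threshold, since it was lost without vehicle mouse 2 (adjusted p = 0.0706), vehicle mouse 4 (0.0544), sham mouse 1 (0.09), sham mouse 2 (0.0837) or sham mouse 3 (0.0828). With lactate the adjusted p stayed at or under 0.00752. Endothelial markers summed to 159 to 165 CPM in sham, 140 to 192 CPM with vehicle and 176 to 225 CPM with lactate. Their summed mean was 161, 168 and 195 CPM. In the same order, mean Ly6c1 was at 74.7, 98.2 and 133 CPM. Cdh5 (0.913, 2.06 and 1.82 CPM), Pecam1 (14, 18.8 and 16.5 CPM) and Flt1 (10.1, 14 and 11.8 CPM) were also above sham. Slco1a4 was below sham, at 30.5, 14 and 9.16 CPM, as was Cldn5 at 23.9, 16.5 and 19.1 CPM. Tek (3.07, 1.06 and 1.12 CPM) and Emcn (3.82, 3.23 and 2.68 CPM) were below it too. The sum thus does not stand for all 8 markers. The part of endothelial content in the level of Il1r1 was not tested.

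RefSeq gives Il1r1 a pair of start sites on chromosome 1, plus strand, and the 250 bases before each are shown because this gene rose in both contrasts (GRCm38.p6, chr1:40224830-40225079 and chr1:40266336-40266585). Before the upstream start, capitals mark a C/EBP motif (TTGCNNAA, matched as TTGCTGAA) 133 bases away, directly preceded by the hypoxia response letters ACGTG on the opposite strand, without a shared base. Before the downstream start, they mark an NF-kappa B match (GGAATGCCCC) 232 bases away, which fits the searched pattern on both strands. The table counts genes, so reads from these starts are summed.

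Il1r1 start 1: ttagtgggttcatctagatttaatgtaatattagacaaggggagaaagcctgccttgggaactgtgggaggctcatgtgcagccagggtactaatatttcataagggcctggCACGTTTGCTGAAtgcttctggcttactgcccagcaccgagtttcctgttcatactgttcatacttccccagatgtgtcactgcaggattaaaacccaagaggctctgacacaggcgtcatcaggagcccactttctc
Il1r1 start 2: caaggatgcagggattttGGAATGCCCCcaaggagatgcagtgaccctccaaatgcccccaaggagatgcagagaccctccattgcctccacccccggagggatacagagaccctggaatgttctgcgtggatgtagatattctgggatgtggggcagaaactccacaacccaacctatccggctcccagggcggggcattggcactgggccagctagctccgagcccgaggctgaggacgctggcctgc

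Il1rap (chr16:26581704-26730117, plus strand) encodes the accessory chain that completes the IL-1 receptor and also serves the IL-33 receptor. Levels were 7.25, 9.59, 8.28 and 10.1 CPM in sham mice 1 to 4, 5.06, 7.38, 10.2 and 5.28 CPM with vehicle, and 6.76, 5.63, 6.2 and 8.58 CPM with lactate. Most ischemic mice lay below the sham mean of 8.81 CPM, but vehicle mouse 3 was the highest of all 12. The log2 fold change to sham was -0.31 with vehicle (SE 0.26, 95% interval -0.86 to 0.25, adjusted p = 0.651 by edgeR) and -0.35 with lactate (SE 0.20, -0.79 to 0.09, adjusted p = 0.3). The accessory chain thus did not pass the test where Il1r1 did, and the difference between these 2 genes was not tested.

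Il1r2 (chr1:40074079-40125231, plus strand) encodes the decoy receptor, known from neutrophils and some macrophages. It was counted 1, 1, 0 and 0 times in sham mice 1 to 4, 21, 22, 24 and 7 times with vehicle, and 10, 21, 29 and 22 times with lactate. In CPM these are at most 0.132 in sham, 1.97, 2.85, 2.99 and 1.03 with vehicle, and 1.35, 2.51, 3.82 and 2.55 with lactate. Every sham mouse was under the limit of 3 counts and every ischemic mouse above it. The ratio of summed counts to sham was 35.6 with vehicle (95% interval 9.52 to 300, counting error only) and 41.1 with lactate (11 to 345). By edgeR, the adjusted p was 0.00188 with vehicle and 0.000249 with lactate, and the fitted log2 fold changes, 4.88 (SE 0.66) and 5.07 (SE 0.62), depend on how the few sham counts are treated.

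With vehicle mouse 1 left out, only 3 ischemic mice remained and Il1r2 missed the filter of 4 mice, as it did without any other ischemic mouse. With a filter of 3 mice, chosen after seeing the data, the log2 fold change without vehicle mouse 1 was 4.92 (adjusted p = 0.00333, edgeR). Over all mice left out in turn under that filter, the adjusted p was at most 0.0137 with vehicle and 0.00196 with lactate. The 10 neutrophil markers summed to 2.9 to 7.65 CPM in sham, 12.3 to 77.9 CPM with vehicle and 20.8 to 44.3 CPM with lactate. In vehicle mice 1 to 4 the sums were 15.7, 57.8, 77.9 and 12.3 CPM, so the mouse with least Il1r2 also had the lowest sum and the mouse with most had the highest. In lactate mice 1 to 4 they were 27, 25.4, 44.3 and 20.8 CPM, where the highest again went with most Il1r2 but the lowest did not go with least. S100a8 and S100a9 made up most of these sums in ischemic mice, and Csf3r and Cxcr2 did not pass the test in either contrast. Of the defining markers, Ltf was at 0 in every mouse, and Ly6g was counted 0, 2 and 2 times over sham, vehicle and lactate, whereas Retnlg had 4, 98 and 96 counts and Mmp8 had 0, 18 and 6. Microglia markers summed to 237 to 252 CPM in sham, 143 to 225 CPM with vehicle and 220 to 244 CPM with lactate, so that the lactate mice overlapped sham. The part of infiltrating cells in the level of Il1r2 was not tested.

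The 250 bases before the RefSeq start of Il1r2 (GRCm38.p6, chr1:40085843-40086092, plus strand) are shown because this gene had the largest fold change to sham of the 6 genes tested. The window lies inside the annotated span of Il1r2, since longer transcripts start upstream. Its 6 capital matches are all of the hypoxia response letters ACGTG, and they fall in a pair of repeats that share CACGTG, a string that reads the same on both strands, so 4 of the 6 overlap one another. None of the other 4 motifs was found in this window. Over 32841 RefSeq windows of 250 bases, 16.6% hold ACGTG on either strand.

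Il1r2: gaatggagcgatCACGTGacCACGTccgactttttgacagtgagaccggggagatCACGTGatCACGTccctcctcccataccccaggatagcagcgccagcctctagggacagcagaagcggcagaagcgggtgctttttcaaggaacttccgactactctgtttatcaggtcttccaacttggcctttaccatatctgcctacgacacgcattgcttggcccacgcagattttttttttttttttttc

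In the annotation, Il1r2 overlaps Gm16894 on the opposite strand and Gm37347 on its own strand, and Il1r1 overlaps Gm38070 on its own strand. On the opposite strand, Il1a overlaps Gm14023, Il1b overlaps Il1bos, Il1rap overlaps Gm20319, and Il18bp shares 80 bases with Numa1, which had 801, 653 and 683 counts over the sham, vehicle and lactate mice against 73, 62 and 58 for Il18bp. The strand used in counting is not given in the sources used here, so reads of these pairs cannot be told apart. Of the other genes, Il1rap was preceded by 1 match of ACGTG and Il18bp by a C/EBP motif. Il1a was preceded by a TATA box 32 bases away and an AP-1 motif (TGANTCA, which reads the same on both strands). Il1rn was preceded by an AP-1 motif at 1 of its 3 starts. The letters TATAAA lay 175 bases before the start of Il18, on the opposite strand. They also lay before both starts of Il33, 203 bases from the first and 29 bases from the second. The second start of Il33 was also preceded by a C/EBP motif. Over all windows, 9.55% hold the NF-kappa B motif, 6.75% AP-1, 9.57% C/EBP and 12.4% TATAAA. A match of letters is a description and no evidence of binding.

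Il18bp (chr7:102014885-102018690, minus strand) encodes the secreted protein that binds and neutralises IL-18. Levels were 2.64, 1.67, 1.22 and 3.58 CPM in sham mice 1 to 4, 1.87, 2.07, 2.12 and 1.32 CPM with vehicle, and 2.16, 1.44, 1.32 and 2.32 CPM with lactate. All 3 groups overlapped, and sham mice spread more widely than the ischemic mice. The log2 fold change to sham was -0.26 with vehicle (SE 0.37, adjusted p = 0.815 by edgeR) and -0.30 with lactate (SE 0.37, adjusted p = 0.655). Without sham mouse 4, the highest, these turned to 0.06 and 0.01. Il18 and its binding protein thus both showed no change past the test. Without vehicle mouse 1, the log2 fold change to sham was 0.25 for Il18, -0.22 for Il33, -0.17 for Il1rap and -0.26 for Il18bp, with adjusted p from 0.495 to 0.788 by edgeR.

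**Figure D2:**
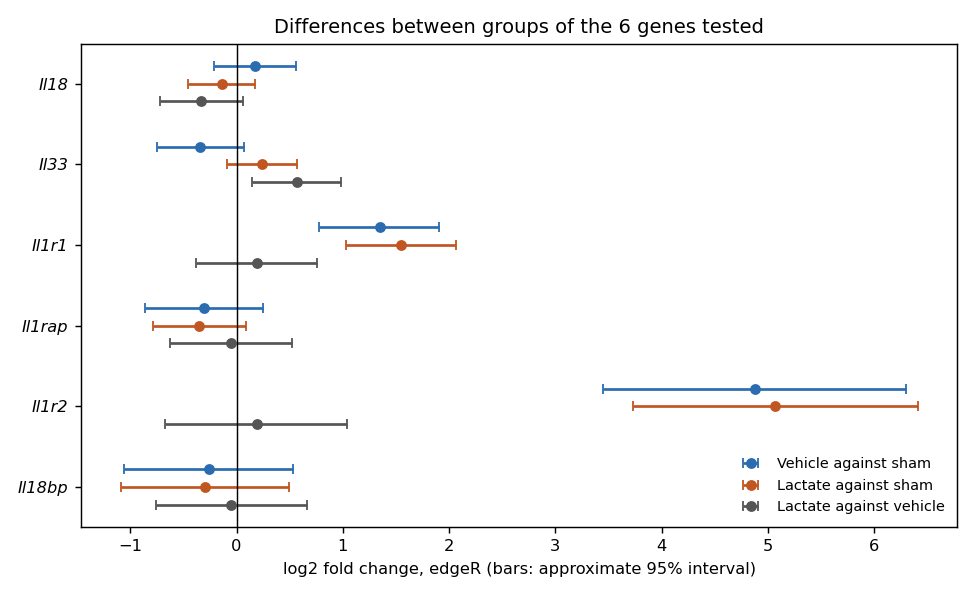
Log2 fold change of the 6 genes tested, by edgeR, for vehicle against sham, lactate against sham and lactate against vehicle (points), with approximate 95% intervals (bars). The intervals of Il1r1 and Il1r2 lie above 0 in both contrasts with sham and include 0 between lactate and vehicle, where the interval of Il33 alone does not include 0.

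Of the 9 genes, 0 were called between lactate and vehicle, where 6.23% of 17419 genes were called before adjustment and 0.00574% after it. With all mice, only Il33 of the 6 genes tested had an unadjusted p under 0.05 by edgeR, and DESeq2 (adjusted p = 0.251), the exact test of edgeR (0.343) and limma voom (0.484) did not call it after adjustment either. Il1r1 was close in both groups, with a log2 fold change of 0.19 (95% interval -0.38 to 0.76, adjusted p = 0.863 by edgeR). For Il1r2 the log2 fold change was 0.19 (-0.67 to 1.04, adjusted p = 0.919). Il18 was at -0.33 (-0.72 to 0.06, adjusted p = 0.623), Il1rap at -0.05 (-0.63 to 0.52) and Il18bp at -0.05 (-0.76 to 0.66). The intervals of Il18, Il1r1, Il1rap and Il18bp end below a log2 fold change of 1, and that of Il1r2 does not. Without vehicle mouse 1 the log2 fold changes were 0.11 for Il1r1, 0.14 for Il1r2, -0.39 for Il18 (unadjusted p = 0.0478, adjusted p = 0.48 by edgeR, and 0.0421 unadjusted without vehicle mouse 2), -0.18 for Il1rap and -0.04 for Il18bp. Il1a and Il1b gave exact permutation p of 0.886 and 0.971.

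The other genes of the family were mostly too low to test. Of 5 further ligand genes, 4 were matched in the table and 1 was tested: Il36g, an epithelial cytokine, at 1.72 ± 0.347 CPM in sham, 1.55 ± 0.728 CPM with vehicle and 2.31 ± 0.239 CPM with lactate (SD, n = 4), not called in any contrast. When vehicle mouse 1 was left out, Il36g was called higher with lactate than with vehicle before adjustment (log2 fold change 0.93, adjusted p = 0.401 by edgeR). Il36a, Il36b and Il1f10 were at 0 in all mice. Of 7 further receptor genes, 1 was tested, Il1rapl1, a synaptic relative of the accessory chain, and it was not called. The IL-33 receptor gene Il1rl1 had 3, 0 and 6 counts over the sham, vehicle and lactate mice, and the IL-18 receptor genes Il18r1 and Il18rap had 0 in sham, 1 and 2 with vehicle and 0 with lactate. The receptor chains particular to IL-18 and IL-33 were thus at or near the detection limit in this tissue.

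Genes of the inflammasome, the complex that activates caspase-1 to cut IL-1 beta and IL-18, were mostly too low to test against sham. Of 11 genes, 5 were tested, and 0 of these were called upward in either contrast. Pycard, the adaptor of the complex, was the 1 gene called, beside 9.52% of all genes tested in the vehicle contrast with sham and 6.23% between the ischemic groups. It was at 3.7 ± 0.599 CPM in sham, 2.02 ± 0.857 CPM with vehicle and 4.22 ± 0.863 CPM with lactate (SD, n = 4). Its log2 fold change was -0.81 for vehicle against sham (adjusted p = 0.302, edgeR) and 1.01 for lactate against vehicle (adjusted p = 0.496), called only before adjustment. These were -1.03 (adjusted p = 0.155) and 1.23 (adjusted p = 0.38) by edgeR without vehicle mouse 1. Casp4, an inflammatory caspase, was not tested against sham, and it held 10 counts over the sham mice, 36 with vehicle and 32 with lactate. The sensor gene Nlrp3, also not tested, held 6, 18 and 23 counts. Casp1 itself held 32, 23 and 13 counts over the sham, vehicle and lactate mice and was not tested, while Nek7, a kinase that activates NLRP3, was the most abundant of the list and not called. The median log2 fold change of the genes tested was -0.30 with vehicle and -0.04 with lactate, beside 0.00 and -0.03 over all genes.

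Of 15 genes of the signalling chain below the receptor, 12 were tested with vehicle and 14 with lactate. Myd88, the adaptor that links the receptor to its kinases, was the one called, and only with lactate, where 17.5% of all genes tested were called (12.3% after adjustment), so that 1 of 14 is no more than the share of all genes. It was at 1.21 ± 0.35 CPM in sham, 1.83 ± 0.931 CPM with vehicle and 2.91 ± 0.339 CPM with lactate (SD, n = 4). Its log2 fold change to sham was 1.28 with lactate (SE 0.30, adjusted p = 0.014 by edgeR) and 0.59 with vehicle (SE 0.40, adjusted p = 0.553), and the direct comparison of lactate with vehicle did not pass the test (log2 fold change 0.67, adjusted p = 0.601). The values were 0.73 with vehicle against sham (adjusted p = 0.385) and 0.54 between lactate and vehicle (adjusted p = 0.623) by edgeR without vehicle mouse 1. The list's median log2 fold change was -0.04 with vehicle and -0.03 with lactate, close to that of all genes.

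Most of the genes tested that are known to be induced by IL-1, and also by other signals such as TNF, were called upward in both contrasts with sham. Of 17 such genes, 8 were tested with vehicle, of which 7 were called upward (5 after adjustment), and 10 with lactate, of which 9 were called upward (8 after adjustment), and 0 were called downward. Over all genes tested, 6.5% were called upward with vehicle (1.29% after adjustment) and 11.9% with lactate (8.76%). Vcam1, an adhesion molecule, did not pass in either contrast. The median log2 fold change was 2.10 and 1.76, beside 0.00 and -0.03 over all genes, and the latter list median is the same with the sham group of Saa3 set at 3 counts. Several of these genes, such as Lcn2, Ptgs2 and Saa3, were known to rise in these samples when the list was chosen, and some passed the filter only through the ischemic mice, so the counts are no independent evidence of direction. Without vehicle mouse 1 and with a filter of 3 mice, 10 of 11 genes tested with vehicle were called upward, 8 of them after adjustment. With the filter of 4 mice, 5 of 6 were, 3 of them after adjustment.

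Lcn2, an iron-binding acute phase protein, had 2 counts over the sham mice, 798 with vehicle and 1401 with lactate. The ratio to sham was 384 with vehicle (95% interval 106 to 3179, counting error only) and 702 with lactate (194 to 5803). Ccl2, the chemokine that attracts monocytes, had 3, 114 and 103 counts, at ratios of 36.6 (12.2 to 180) and 34.4 (11.5 to 170). Both were among the genes past the adjusted threshold with either injection, together with Ptgs2, Nfkbia and Nfkbiz. Ptgs2, the inducible cyclooxygenase, was at 3.34 ± 0.807 CPM in sham, 30.3 ± 31.1 CPM with vehicle and 12.6 ± 9.54 CPM with lactate (SD, n = 4), so that its spread between vehicle mice was as large as its mean. Nfkbia, the inhibitor that NF-kappa B induces against itself, was steadier, at 11.1 ± 1.55, 33.5 ± 3.96 and 34 ± 1.9 CPM. Its log2 fold change to sham was 1.63 with vehicle (adjusted p = 0.000157, edgeR) and 1.65 with lactate (adjusted p = 8.2e-06).

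Ptges, the prostaglandin E synthase that works with Ptgs2, the acute phase gene Saa3, and Birc3, an inhibitor of apoptosis, passed the adjusted threshold with lactate. Ptges was at 2.51 CPM with vehicle and 2.52 CPM with lactate and was called before adjustment with vehicle. Birc3, not tested with vehicle, had 23 counts in sham, 107 with vehicle and 84 with lactate. Saa3 had 0 counts in sham, 25 with vehicle and 92 with lactate, and no fold change to sham is given. Between lactate and vehicle, 6.23% of 17419 genes were called over the whole table (1085 genes, and 836 to 1384 when 1 mouse was left out). Of this list, Lcn2 and Saa3 were called higher with lactate and Nfkbiz lower, and 0 of the 12 genes tested passed adjustment by edgeR. With vehicle mouse 1 left out, Ptgs2 (log2 fold change -1.62) and Tnfaip3 (-0.99) were also called lower, so that 3 genes were lower and 2 higher, again with 0 past adjustment. The log2 fold change of Lcn2 was 0.85 (SE 0.14, adjusted p = 0.265) and that of Nfkbiz was -1.07 (SE 0.42, adjusted p = 0.526). The cytokine Il6 was at 1, 12 and 10 counts over the sham, vehicle and lactate mice and was not tested.

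Markers of other cell types were read beside these genes, where 1.47% of all genes tested passed adjustment with vehicle and 12.3% with lactate. Of 10 neutrophil markers, 4 were tested with vehicle and 5 with lactate, and S100a8 and S100a9 rose in both (log2 fold changes of 4.40 and 5.34 with vehicle, and 3.83 and 4.78 with lactate, all past the adjusted threshold of edgeR), while Retnlg rose with lactate and was not tested with vehicle, where its counts were alike (4 in sham, 98 with vehicle and 96 with lactate). The other neutrophil markers tested did not pass, with log2 fold changes of -0.97 and -0.06 for Csf3r and 0.38 and -0.28 for Cxcr2 with vehicle and lactate. The monocyte and macrophage markers summed to 9.23 to 13.8 CPM in sham, 11.7 to 25.4 CPM with vehicle and 13.8 to 26.7 CPM with lactate, with Lyz2 called after adjustment with lactate. P2ry12, a receptor of resting microglia, fell in both contrasts (log2 fold changes of -1.01 and -1.10, adjusted p of 0.0275 and 0.00265), and Cx3cr1 fell with vehicle (-1.21, adjusted p = 0.0201). With lactate Cx3cr1 was at -0.56 (adjusted p = 0.102), and it was called higher with lactate than with vehicle before adjustment (0.63, adjusted p = 0.514 by edgeR). The vehicle calls of S100a8, S100a9, P2ry12 and Cx3cr1 stayed past adjustment without vehicle mouse 1, and the astrocyte marker Gjb6 passed it as well (log2 fold change 0.84, adjusted p = 0.0178). Among 8 endothelial markers, Ly6c1 rose and Slco1a4 fell with lactate after adjustment. Slco1a4 was also called lower with lactate than with vehicle when vehicle mouse 1 was left out (log2 fold change -0.83, adjusted p = 0.437 by edgeR), but not with it (-0.63). Of 8 oligodendrocyte markers, Mog, Cnp and Opalin fell with lactate after adjustment (Cnp by less than 1.5-fold, at a log2 fold change of -0.53), of 8 astrocyte markers Gjb6 rose, which as 1 of 8 is near the share of all genes, and 0 of 8 neuron markers were called in any contrast.

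**Figure D3:**
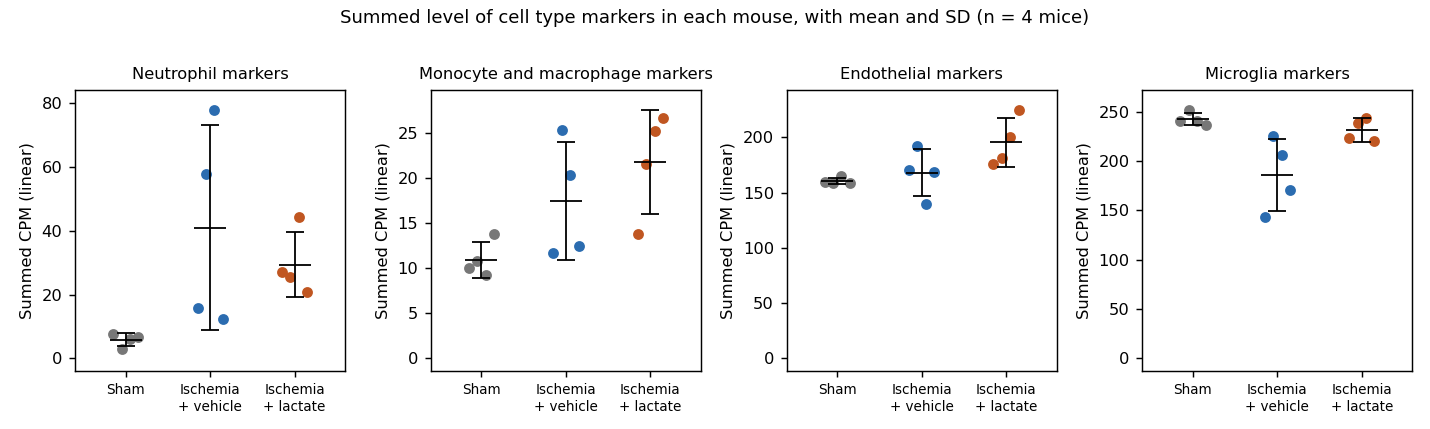
Summed CPM (linear axes that include 0) of the neutrophil, monocyte and macrophage, endothelial and microglia markers in each mouse (points), with mean and SD (bars, n = 4 mice). Neutrophil sums are above 12 CPM in every ischemic mouse and below 8 CPM in every sham mouse, and spread most widely with vehicle, while microglia sums are lowest with vehicle.

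The genes most like each member over all mice were found among 13527 genes by Pearson's r of log2(CPM + 1) over the 12 mice, as a description in which the group differences are part of the likeness. For Il1r2 these were Ccl2 (r = 0.968) and Gm49339 (r = 0.956), both nearly absent from sham brains. For Il1r1 they were Ormdl3 (r = 0.93) and Ucp2 (r = 0.929), where Ucp2, a mitochondrial carrier, ranged from 7.25 to 10 CPM in sham and from 22.9 to 43.7 CPM in ischemic mice. Il33 was most like Clock (r = 0.924), a circadian transcription factor, and Magt1 (r = 0.898). Those of Il1rap were Psmg4 (r = 0.886) and Zfyve16 (r = 0.88), those of Il18 Olfr1031 (r = 0.848) and Camkmt (r = 0.828), and those of Il18bp Zcwpw1 (r = 0.914) and Pnp2 (r = 0.842). With so many genes compared over 12 points, values of this size for genes without a group difference carry little weight.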

How the data were processed

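Total brain RNA of 12 mice was sequenced as PCR-amplified full-length cDNA on a nanopore platform. The authors removed short, low-quality and ribosomal reads and mapped the full-length reads with minimap2. Consensus isoforms came from pinfish and were matched to annotated transcripts in gffcompare. The deposited counts per gene were made by the authors from these reads without normalization, and the way reads were counted per gene and by strand is not given in the sources used here. The deposited CPM values are the same counts that the authors divided by the library total. The submitters' processing notes name GRCm38 and DESeq 1.10.1. Columns of the authors' own comparisons (fold changes and p-values) were not used. Since short reads were removed, short transcripts may be under-counted, and the reads carry no molecular identifiers.

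The 9 genes and all gene lists were chosen with earlier results of these data known. From the table, 4 lines without a gene were left out and 27 symbols stored as dates were restored by identifier, leaving 31208 genes (22036 Ensembl, 8652 new loci). Each pair of groups was fitted alone with edgeR 4.0.16 in R 4.3.3 (TMM, quasi-likelihood test, genes with a CPM of 1 or more in 4 or more of 8 mice), adjusted by Benjamini-Hochberg over all genes tested. The standard error is the log2 fold change over the square root of F. Genes under the filter were compared by exact two-sided permutation of log2(CPM + 1). Scripts were tested on simulated data. The labels number the replicates of a group without more detail, and p-values measure only the spread between these samples, which may be partly technical.

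Named were the 9 genes, the genes of each list with an adjusted p under 0.05 in any contrast or else its most abundant gene, and the 2 genes most like each tested member. Others in the text (such as Pycard, Casp1, Casp4, Nlrp3, Mmp8, Il6, Il1rl1 and Il18r1) were named after their values were seen. Promoters are RefSeq windows on GRCm38.p6 (13 windows, all 9 genes matched) and overlaps of genes are from GENCODE M21. Alternatives were no filter, a CPM of 0.5, size factors of RLE, library totals, DESeq2 1.42.0, the exact test of edgeR, limma 3.58.1 with voom, one fit of 12 mice, a block, Ensembl genes alone, a fold change of 2, a pseudocount of 0.5 and leaving out each mouse. Python 3.11.15, pandas 2.3.3, numpy 2.4.6, scipy 1.17.1 and matplotlib 3.10.9 were used.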

Additional observations from a re-analysis of the deposited data

Results flagged for a closer look

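In sham mice, 1 of 4 values of Il1a stood apart, at 0.669 CPM (6 counts) against at most 0.272 CPM (2 counts) in the others, by a gap larger than Dixon's 95% critical value. It was the only one of 26 groups tested that did so, and chance gives about 1 in 20.

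Il33 differed between the ischemic groups by a log2 fold change of 0.57 (lactate against vehicle, edgeR unadjusted p = 0.0116, adjusted p = 0.496), with 4 of 4 lactate mice above all vehicle mice, while vehicle mice were on average below sham and lactate mice above it. Over the alternatives its adjusted p ranged from 0.251 to 0.757.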

How the results depend on the processing

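Of 421 alternative values of the 9 genes, 377 kept their direction and their side of the threshold before adjustment, 8 lost and 7 gained it and 29 changed sign. The adjusted call of Il1r1 with vehicle was lost in 5 of the fits without a mouse (adjusted p of 0.0544 to 0.09 by edgeR). Il1r1 kept a log2 fold change of 1.21 to 1.48 with vehicle and 1.38 to 1.68 with lactate when each mouse was left out, and Il1r2 kept 4.54 to 5.34 and 4.73 to 5.53 where it was tested. The number of the 9 genes called against sham was 2 in every other setting, 3 with no filter (which lets in Il1rn), and 1 to 2 when a mouse was left out, since Il1r2 misses the filter without an ischemic mouse. After adjustment it was 0 to 2 with vehicle and 1 to 2 with lactate when a mouse was left out, and 3 with lactate with no filter. With a filter of 3 mice, added after seeing the data, it was 2 before adjustment and 1 to 2 with vehicle after it. Between lactate and vehicle the number was 0 to 1, with Il33 called by library totals (1 gene), one fit of 12 mice (1) and Ensembl genes alone (1), where its log2 fold change was 0.59, 0.59 and 0.61, and without lactate mouse 1 or 2 or vehicle mouse 2 or 3, with a range over mice left out of 0.46 to 0.66. The 8 that no longer passed are the exact permutation tests of Il1rn for lactate against sham, because 3 against 4 mice cannot give an exact p under 0.0571.

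Changes of sign came from leaving out a mouse, for values near 0: Il18bp (-0.46 to 0.06 with vehicle, -0.5 to 0.01 with lactate, -0.19 to 0.07 between them), Il1a (-0.21 to 0.09, -0.11 to 0.1 and -0.09 to 0.21), and, between lactate and vehicle, Il1b (-0.11 to 0.16), Il1rap (-0.18 to 0.18) and Il1r2 (-0.06 to 0.39 under either filter, with -0.06 without lactate mouse 3 and -0.03 without vehicle mouse 4). Il1a with lactate was also -0.00 with a pseudocount of 0.5 (0.00 with 1).

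Over the whole table, genes called numbered 1620 with vehicle, 3022 with lactate and 1085 between them. They were 2761, 5068 and 1742 with no filter, 1045, 1518 and 537 for Ensembl genes alone, and 720, 1568 and 374 at a fold change of 2. After adjustment, the 250 genes with vehicle became 476 with DESeq2, 503 with the exact test of edgeR and 114 to 369 without a mouse. The 2123 with lactate became 1003 for Ensembl genes alone and 1296 to 1934 without a mouse. The 1 gene between lactate and vehicle became 2 with no filter, 62 with DESeq2, 48 with the exact test, 0 with limma voom, 2 for Ensembl genes alone and 0 to 5 without a mouse. The cause of these shifts was not tested. No scaling moved the median of all genes by over 0.1.

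Mouse numbers are shared between groups, but same-numbered mice did not deviate together (correlations of -0.149 to 0.16), so the numbers were not taken as pairs. With the replicate block, 2, 2 and 0 of the 9 genes were called, Il1r1 was at 1.34 (adjusted p = 0.0269) and 1.53, Il1r2 at 4.87 and 5.04, and Il33 at 0.57 between lactate and vehicle. Depth limits Il1a, Il1b and Il1rn, which lie near 3 counts per mouse.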
